A study of Mus musculus with 4 samples.

Results

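The genes described here encode the nuclear subunits of the 5 complexes of oxidative phosphorylation. They were chosen by name, as genes whose platform symbol starts with Ndufa, Ndufb, Ndufc, Ndufs, Ndufv, Sdha, Sdhb, Sdhc, Sdhd, Uqcr, Cox4, Cox5, Cox6, Cox7, Cox8 or Atp5. Of 18193 genes measured, 94 met this rule, read by 185 probe sets. Where several probe sets read a gene, the brightest on average over the 4 arrays stood for it. The name rule also takes in genes that are not subunits of a finished complex. By role, 73 genes encode structural subunits, 12 are assembly factors (Ndufaf1 to Ndufaf8 and Sdhaf1 to Sdhaf4), 8 are alternative isoforms of tissue-restricted or inducible expression, and Cox7a2l encodes a factor that joins complexes III and IV into supercomplexes. Ndufa4, named for complex I, is counted with complex IV, where its protein is now placed, and so is its paralogue Ndufa4l2. This gave 42 genes for complex I, 8 for complex II, 8 for complex III, 19 for complex IV and 17 for complex V.

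Oxidative phosphorylation takes place in the inner mitochondrial membrane. Complexes I and II pass electrons from NADH and succinate to ubiquinone, complex III passes them on to cytochrome c, and complex IV passes them to oxygen. Complexes I, III and IV pump protons, and complex V, the ATP synthase, uses the returning protons to make ATP. A few subunits of complexes I, III, IV and V are encoded in mitochondrial DNA and the others in the nucleus, so both genomes have to supply parts in step. The transcription factors NRF1 and GABP (an ETS family protein, also called NRF2) and the PGC-1 coactivators are known regulators of the nuclear genes. Endothelial cells are known to make much of their ATP by glycolysis, and their mitochondria are known for roles in signalling and biosynthesis.

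The study measured messenger RNA in SVEC4-10 cells, a mouse endothelial line made from lymph node vessels by SV40 transformation, to find transcripts that depend on the actin-oxidising enzyme MICAL2. The 4 arrays, 1 per group, held untreated cells, cells transduced with the insert-free pLENTI6/Block-iT lentiviral vector, and cells carrying that vector with a hairpin directed at Mical2 or at Mical3. All transduced cells, the vector control included, were selected with blasticidin, and the untreated cells were not transduced. Each array carried RNA pooled from 3 biological replicates, so no spread between replicates, test or p-value can be given.

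Values are log2 levels computed with RMA, and a difference of 1 means 2-fold. A gene is called when it differs by at least 2-fold and its higher level reaches a floor of 5.41, the table's median value. For a hairpin array the call has to hold against each control array, vector and untreated, with 1 sign. Both hairpin comparisons share these controls. The floor was reached by 93 of the 94 genes on some array, all but Cox7b2. Quantile normalization gives the arrays nearly the same distribution (medians from 5.40 to 5.44), so every difference is relative to the other genes on the array. In bulk RNA, fewer cells of a type and less RNA per cell cannot be told apart.

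The labels were not borne out by the targeted transcripts. Mical2 read 5.53 under its own label in the brighter of its 2 probe sets, and 5.60, 5.14 and 6.08 in untreated cells, vector cells and under the Mical3 label. The other probe set was likewise lowest in vector cells (4.64) and highest under the Mical3 label. Both Mical2 probe sets were read near the floor, and below it on the vector array, so they leave little room to show a fall. Mical3 read 7.24 under its own label, and 7.39, 7.29 and 6.83 in untreated cells, vector cells and under the Mical2 label. Neither was 2-fold lower on the array of its own hairpin, so the hairpin arrays are called by their labels throughout. Of 14 endothelial markers, 5 reached the floor on some array, and Pecam1, Cdh5, Vwf, Tek, Tie1, Emcn, Erg, Robo4 and Cldn5 did not. Of 7 fibroblast markers 5 reached it, and the log2 of their summed level was 15.25 on the untreated array, 12.78 on the vector array, 14.83 on the Mical2-labelled and 13.26 on the Mical3-labelled array. Summed epithelial markers (3 of 4 at the floor, with 9.01, 7.78, 9.14 and 9.31 in that order) were also lowest on the vector array. So was the smooth muscle sum (2 of 4 at the floor, with 13.69, 11.68, 13.82 and 14.50). That sum was nearly all Acta2 (13.67, 11.61, 13.80 and 14.49), and Des, the other gene at the floor, was lowest on the untreated array (6.58, 6.74, 6.97 and 6.78). The endothelial sum stayed between 9.71 and 9.74. The part of these differences in the results below was not tested.

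No oxidative phosphorylation gene was called against both controls on either hairpin array. Among all genes at the floor, 2.73% were called for the array labelled Mical2 and 3.87% for the array labelled Mical3. The vector array against the untreated array gave 1 called gene of 92, Cox7a1, where 5.83% of all genes were called and 3.26% were called higher. Between the 2 hairpin arrays 1 of 92 was called, Sdhaf3, lower on the array labelled Mical2, with 7.53% of all genes called and 3.72% called lower. Neither of these is a structural subunit of the ubiquitous complexes, and none of the 73 structural subunits was called in any of the 4 comparisons.

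The range of each gene over the 4 arrays, its highest minus its lowest log2 level, was small. The median range was 0.42 for the 94 genes and 0.55 for the 12166 genes at the floor, but it was also 0.42 for the 791 genes with a mean level of 12 or more, a level that 61 of the 94 reached. A range under 1.5-fold was found for 72 of the 94 genes (76.6%), against 53.5% of all genes at the floor. Cox5a, a nuclear subunit of complex IV with the smallest range of its complex, read 13.82, 13.80, 13.85 and 13.80 on the untreated array, the vector array and the arrays labelled Mical2 and Mical3. Atp5c1, the gamma subunit that turns inside the ATP synthase head, read 13.57, 13.64, 13.59 and 13.64 in that order. Ndufb8, an accessory subunit of complex I, read 12.90, 13.00, 12.92 and 12.88. These 3 genes had ranges of 0.05, 0.07 and 0.12.

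**Figure D1:**
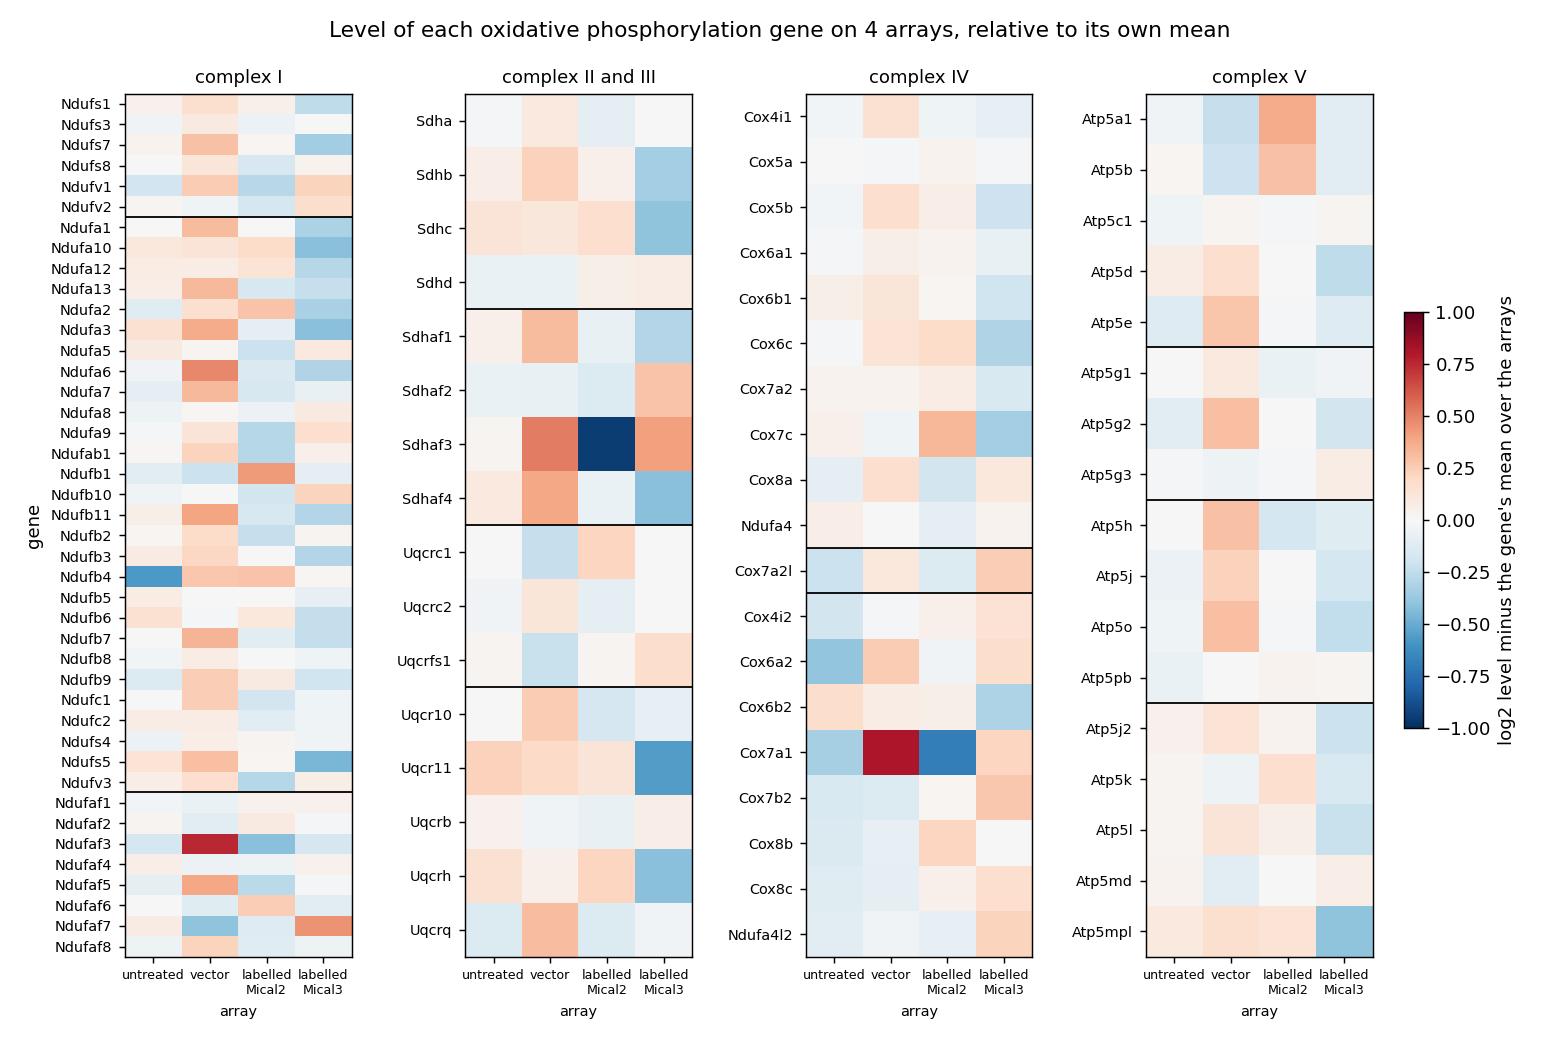
Log2 level of each of the 94 oxidative phosphorylation genes on the 4 arrays (columns), minus that gene's own mean over the arrays, with complexes in separate panels and black lines between groups of subunits. Red cells gather in the vector column and blue cells in the column labelled Mical3, and Cox7a1, Sdhaf3 and Ndufaf3 have the strongest colours, with ranges of 1.50, 1.46 and 1.17.

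Within this narrow range the direction was shared by many genes. The vector array was the highest of the 4 for 49 of the 94 genes (52.1%), against 34.4% of all genes at the floor. The array labelled Mical3 was the lowest for 39 (41.5%), against 27% of genes at the floor. For the structural subunits alone the vector array was highest for 41 of 73 (56.2%) and the array labelled Mical3 lowest for 36 (49.3%). Among the 61 brighter genes, with a mean of 12 or more, it was 35 (57.4%) and 32 (52.5%), where all 791 genes of that brightness had 28.8% and 26.9%.

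The same pattern appears in the differences. The vector array was higher than the untreated array for 62 of 92 genes and lower for 26 (53.8% and 45.1% of all genes), with a median difference of 0.10 over the 94 genes. Against both controls, the array labelled Mical2 was lower for 47 of 92 genes and higher for 22, where all genes gave 39.4% and 31.5%. Its median difference was -0.11 from the vector and -0.02 from the untreated level. The array labelled Mical3 was lower than both controls for 45 of 93 genes and higher for 20, where all genes gave 37.3% and 35.3%. The corresponding medians were -0.16 (vector) and -0.04 (untreated). Over all 18193 genes the medians of these 5 differences lay between 0.00 and 0.02. Over the 12166 genes at the floor they were 0.03, -0.04, -0.03, -0.03 and 0.01 in the order given. For the 94 genes, the medians of both hairpin arrays thus lay within 0.04 of the untreated array and farther from the vector array. The small differences from the untreated array are of the size seen over the genes at the floor.

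The reading of a single gene also depends on the probe set chosen for it. For the 48 genes with more than 1 probe set at the floor, the standard deviation between probe sets of a gene was 0.13 for the difference of the vector from the untreated array, 0.18 for each hairpin array minus the vector array, and 0.15 and 0.17 for the arrays labelled Mical2 and Mical3 minus the untreated array. Of the 77 further probe sets of these genes, 58 had the same sign as the chosen one for the vector minus the untreated array, 57 for each hairpin array minus the vector array, and 58 and 52 for the arrays labelled Mical2 and Mical3 minus the untreated array. A difference of 0.2 in a single gene is therefore of the size of the disagreement between its readings, and probe sets on the same array say nothing of the spread between cultures. The medians over many genes also rest on 1 pooled array per group and say nothing of that spread.

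**Figure D2:**
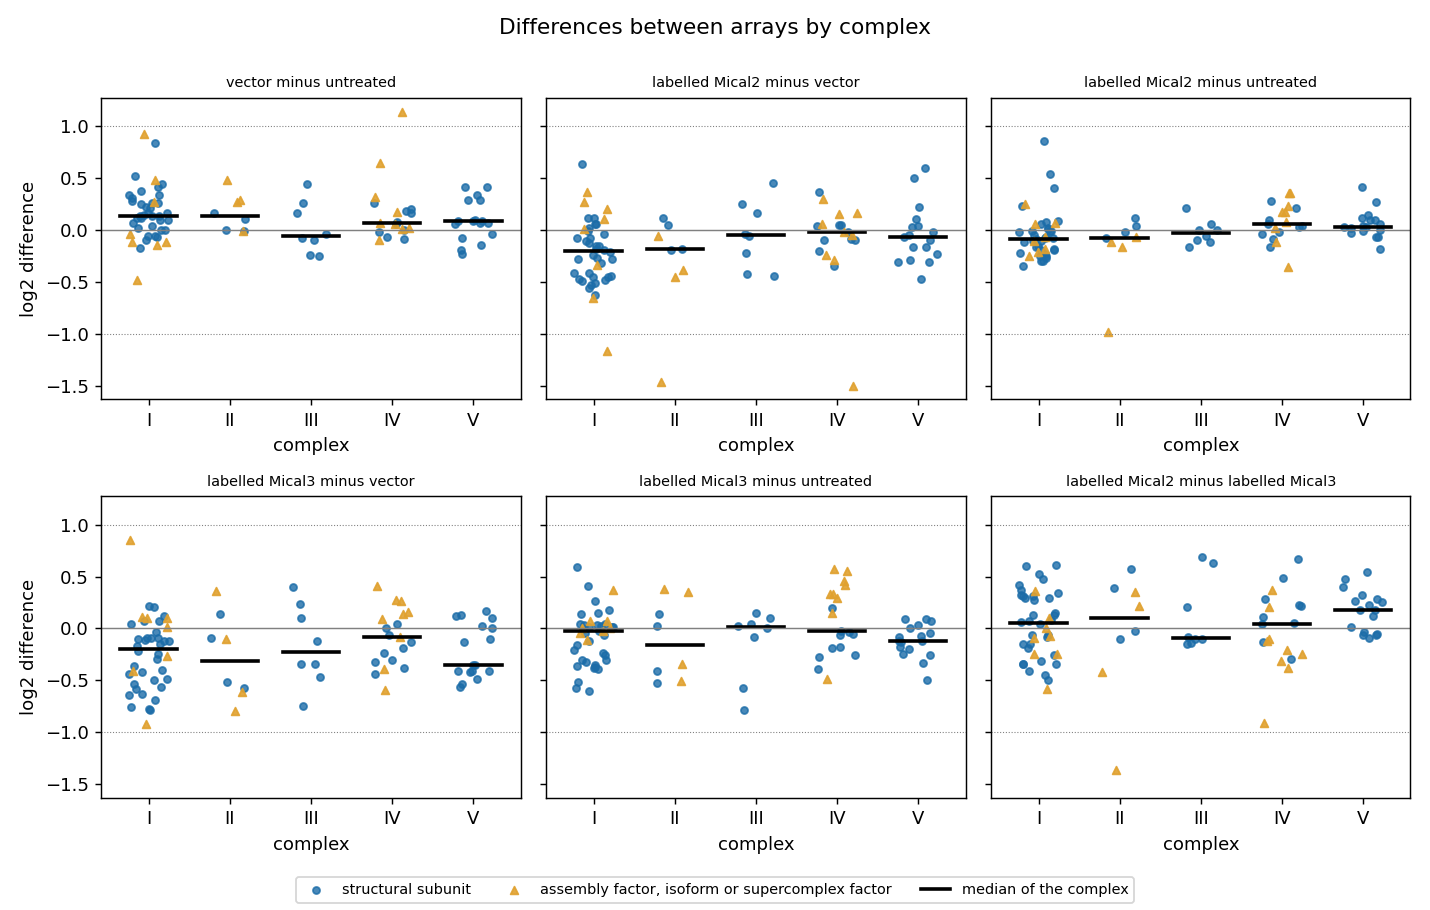
Log2 difference between pairs of arrays (vertical axis, one panel per pair) for each gene, by complex (horizontal axis); blue points are structural subunits, orange triangles the other genes, black bars the median of a complex and dotted lines 2-fold. Structural subunits stay inside the dotted lines in every panel, and the medians of complexes I, II, III and V for the array labelled Mical3 minus the vector array lie between -0.35 and -0.20.

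The 5 complexes differed little from each other. For the vector minus the untreated array the medians were 0.13 for complex I, 0.14 for complex II, -0.06 for complex III, 0.07 for complex IV and 0.09 for complex V. The array labelled Mical2 minus the vector array gave -0.20, -0.19, -0.05, -0.02 and -0.07 in the same order, and minus the untreated array -0.09, -0.08, -0.03, 0.06 and 0.03. For the array labelled Mical3, the medians were -0.20, -0.31, -0.23, -0.08 and -0.35 from the vector array and -0.02, -0.16, 0.01, -0.02 and -0.12 from the untreated array. The order of the complexes is not settled by these values, since alternatives changed which complex had the lowest median. Whether complexes differ could not be tested with 1 array per group, and the medians of complexes II and III, with 8 genes each, moved by 0.1 or more under several alternatives.

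Complex I, the NADH dehydrogenase, was represented by 6 core subunits, 28 accessory subunits and 8 assembly factors. All 6 core subunits, which carry the electron path, were lower on the array labelled Mical2 than on the vector array, with a median of -0.21, and the median from the untreated array was -0.06. Ndufv1, the NADH-binding subunit, read 12.11 on the untreated array, 12.55 on the vector array, 12.02 on the Mical2-labelled and 12.52 on the Mical3-labelled array. It was high on the vector array and the array labelled Mical3 and low on the other pair. Ndufs7, a core subunit with an iron-sulfur cluster, read 12.58, 12.84, 12.57 and 12.20 in that order, lowest on the array labelled Mical3. Ndufs1, the largest core subunit, read 9.91, 10.03, 9.92 and 9.61, again lowest there.

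The accessory subunits, which surround and stabilise the core, were lower than the vector array for 22 of 28 on the Mical2-labelled and 23 of 28 on the Mical3-labelled array, with medians of -0.23 and -0.27. From the untreated array the medians were -0.10 and -0.09. Ndufs5, a small subunit on the intermembrane side, stood at 12.25 on the untreated array, 12.41 on the vector array, 12.13 on the Mical2-labelled and 11.65 on the Mical3-labelled array. The last value lay below the others, with differences of -0.76 (vector) and -0.60 (untreated). A further probe set annotated to Ndufs5 and its pseudogene read 12.56, 12.76, 12.56 and 12.07 in the same order, so it too was lowest on the array labelled Mical3. Ndufa3 read 12.78, 13.00, 12.53 and 12.21, and Ndufa10 read 12.53, 12.55, 12.61 and 12.01. Both were lowest on the array labelled Mical3, but a dimmer probe set of Ndufa10 (6.15, 6.32, 6.05 and 6.30) did not show it.

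Among the other accessory subunits, Ndufa6 read 12.39, 12.91, 12.28 and 12.13 and Ndufb11, which is X-linked, 13.40, 13.74, 13.18 and 13.05, both highest on the vector array. Ndufb1 ran the other way, with 8.83, 8.73, 9.37 and 8.85, highest on the array labelled Mical2. Ndufb4 was read near the floor by its only single-gene probe set (4.72, 5.56, 5.58 and 5.31). The probe sets shared with its copies Ndufb4b and Ndufb4c read 12.14, 12.57, 12.10 and 11.91, and 12.56, 12.92, 12.48 and 12.34, highest on the vector array and lowest on the array labelled Mical3. Because they cannot separate the copies, they were left out of the counts.

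The assembly factors of complex I were mixed, 5 above and 3 below the vector array on each hairpin array. Their medians were 0.06 from the vector array on both hairpin arrays, -0.09 from the untreated array on the Mical2-labelled and 0.00 on the Mical3-labelled array. Ndufaf3, which acts early in assembly, read 9.59 on the untreated array, 10.51 on the vector array, 9.34 on the Mical2-labelled and 9.59 on the Mical3-labelled array, so the vector array stood alone. It lay 0.92 above the untreated array, and the array labelled Mical2 was 1.17 below the vector array. Ndufaf7, a methyltransferase that modifies a core subunit, was lowest on the vector array (9.36, 8.88, 9.15 and 9.73). Ndufaf1 had the smallest range of the complex, with 9.50, 9.46, 9.57 and 9.57.

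In complex II, succinate dehydrogenase, the flavoprotein subunit gene Sdha and the membrane anchor gene Sdhd were nearly flat, with ranges of 0.19 and 0.14. Sdhb, which holds the iron-sulfur clusters, read 12.68 on the untreated array, 12.84 on the vector array, 12.66 on the Mical2-labelled and 12.27 on the Mical3-labelled array. Sdhc, the other anchor, read 10.78, 10.77, 10.82 and 10.25 in that order. Both were lowest on the array labelled Mical3, but a second Sdhc probe set read 9.08, 8.87, 9.28 and 9.03, without this difference.

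The assembly factors of complex II varied more than its subunits, with a median range of 0.70 against 0.38. Sdhaf3, which helps to mature the iron-sulfur subunit, read 8.63 on the untreated array, 9.11 on the vector array, 7.65 on the Mical2-labelled and 9.01 on the Mical3-labelled array. Only the array labelled Mical2 was low. It lay below the other arrays by -0.98 (untreated), -1.46 (vector) and -1.36 (array labelled Mical3), so it was just short of 2-fold against the untreated array and was called against the array labelled Mical3. At 1.5-fold it was the 1 of 92 genes called for the array labelled Mical2 against both controls, where 8.11% of all genes were and 5.57% were lower. The shared Ndufs6 probe set given above, also low on that array, was not in this count. A second probe set of Sdhaf3 was below the floor throughout (3.20, 3.42, 3.19 and 3.51), and with the mean of both probe sets the difference from the array labelled Mical3 was -0.84 and no longer called. Sdhaf4 read 10.80, 11.09, 10.64 and 10.29 and Sdhaf1 9.25, 9.52, 9.13 and 8.91, both highest on the vector array and lowest on the array labelled Mical3.

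Complex III, the cytochrome bc1 complex, held the structural subunit with the largest difference against both controls. Uqcr11, a small subunit, read 13.20 on the untreated array, 13.16 on the vector array, 13.10 on the Mical2-labelled and 12.41 on the Mical3-labelled array. The first 3 values lie within 0.10 of each other and the last stands apart, with differences of -0.75 (vector) and -0.79 (untreated). Uqcrh, the hinge protein near cytochrome c1, gave 12.96, 12.86, 13.02 and 12.39 in the same order, and its second probe set 12.38, 12.35, 12.49 and 11.82. Both readings of Uqcrh were lowest on the array labelled Mical3. At 1.5-fold, Uqcr11 and Ndufs5 were the 2 of 93 genes called for that array against both controls, both lower, where 11% of all genes were called and 6.53% were lower.

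The other genes of complex III did not follow them. Uqcrc1, a core protein, was lowest on the vector array (11.48, 11.24, 11.69 and 11.48), and so was Uqcrfs1, the Rieske iron-sulfur protein (12.36, 12.11, 12.36 and 12.51). Uqcrq, a small subunit known as a ubiquinone-binding protein, was highest on the vector array (12.93, 13.37, 12.93 and 13.03). Uqcrb was flat at 14.42, 14.34, 14.30 and 14.44. The chosen probe set of Uqcrc2, the other core protein, read 11.94, 12.10, 11.88 and 11.98 and its second 11.04, 10.83, 11.01 and 11.23, with opposite signs for the vector minus the untreated array.

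In complex IV, cytochrome c oxidase, the ubiquitous subunits had a median of -0.22 for the array labelled Mical3 minus the vector array and -0.12 minus the untreated array, lower than the untreated array in 9 of 10 genes. Cox6c read 13.74 on the untreated array, 13.90 on the vector array, 13.95 on the Mical2-labelled and 13.46 on the Mical3-labelled array. Cox5b, read by 4 bright probe sets that each gave its lowest level on the array labelled Mical3, had 13.96, 14.16, 14.06 and 13.78 in the chosen one. Cox7c was near the floor (5.99, 5.90, 6.27 and 5.60), and its second probe set was below it (4.17, 4.00, 4.43 and 4.18).

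The alternative isoforms of complex IV subunits were read dimly, with no level above 7.44 in the chosen probe sets. They are mostly known from heart and skeletal muscle, testis or oxygen shortage, and 7 of the 8 reached the floor on some array. Cox7a1, the heart and muscle form, read 4.99 on the untreated array, 6.13 on the vector array, 4.63 on the Mical2-labelled and 5.54 on the Mical3-labelled array. It passed the floor on the vector array and the array labelled Mical3 only. The vector array was 1.14 above the untreated array, a call that was lost with a higher floor or with 16 added on the linear scale, and 1.50 above the array labelled Mical2. Its ubiquitous partner Cox7a2 read 14.00, 14.00, 14.04 and 13.81, so the isoform's difference was not shared by the partner. Cox6a2, another muscle form, read 6.54, 7.19, 6.90 and 7.11, and its partner Cox6a1 14.55, 14.63, 14.61 and 14.50. A second, dim Cox6a2 probe set read 4.10, 4.85, 4.70 and 4.52, with the untreated array lowest in both.

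The remaining isoforms had smaller ranges. Cox4i2, known to be induced when oxygen is short, read 5.15, 5.32, 5.38 and 5.48 and its partner Cox4i1 13.75, 13.93, 13.73 and 13.69. Ndufa4l2, likewise known as a hypoxia-induced gene, read 6.13, 6.20, 6.15 and 6.46, and Ndufa4 13.62, 13.55, 13.46 and 13.59. Cox8b read 5.49, 5.55, 5.85 and 5.64 and Cox8c 7.15, 7.17, 7.32 and 7.44, while Cox8a, the ubiquitous form, read 13.44, 13.70, 13.35 and 13.64. Cox6b2, known from testis, read 5.50, 5.40, 5.38 and 5.01, beside 13.89, 13.95, 13.85 and 13.63 for Cox6b1. Cox7b2 stayed below the floor at 3.42, 3.43, 3.59 and 3.84, and its partner Cox7b had no probe set of its own.

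Cox7a2l read 11.82 on the untreated array, 12.14 on the vector array, 11.90 on the Mical2-labelled and 12.28 on the Mical3-labelled array, high on the same pair of arrays as Ndufv1.

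**Figure D3:**
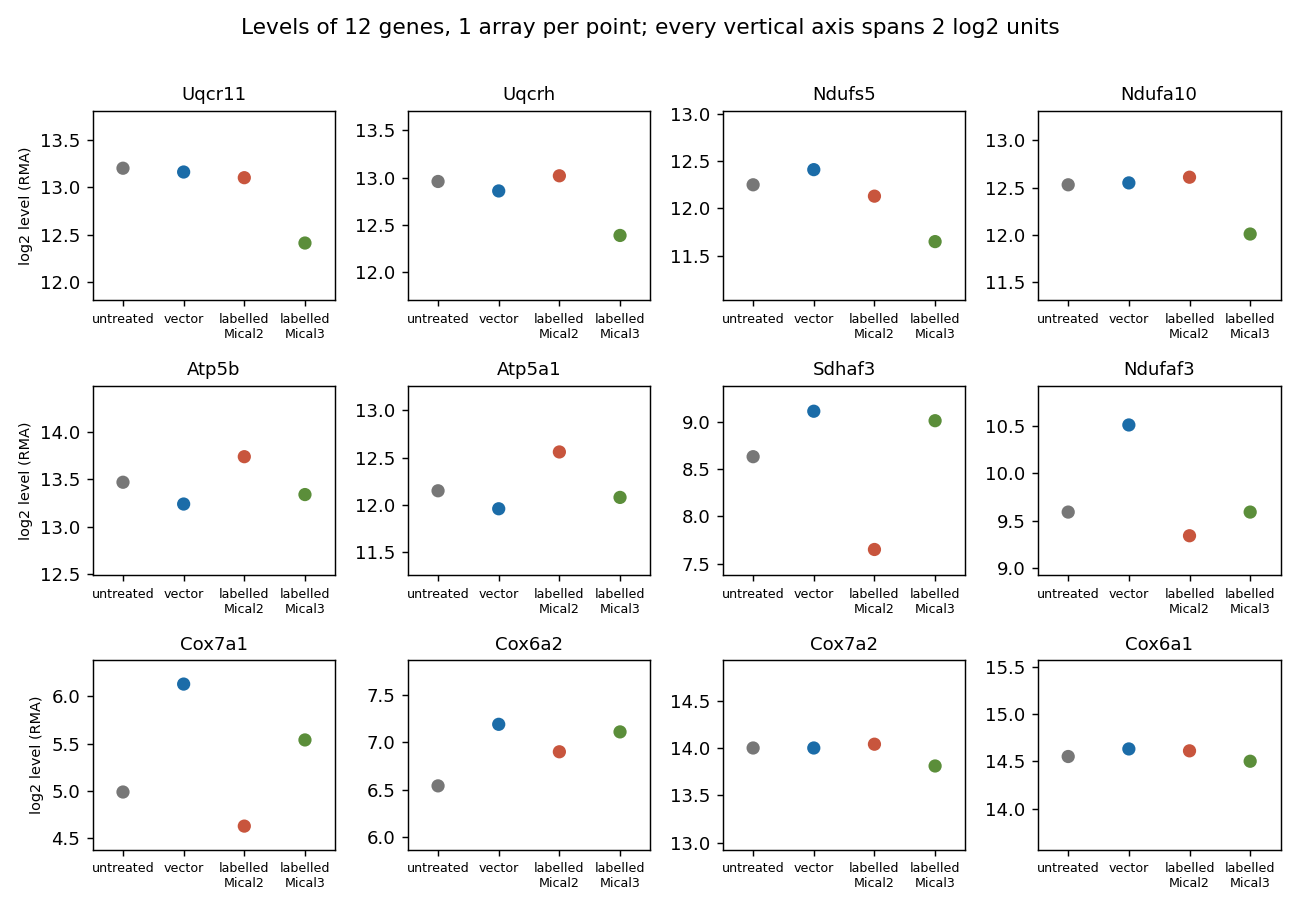
Log2 level (vertical axis, spanning 2 log2 units in each panel, with its own start) of 12 oxidative phosphorylation genes on the 4 arrays (horizontal axis), 1 point per array and no error bars, since each group has 1 array. Uqcr11, Uqcrh, Ndufs5 and Ndufa10 are lowest on the array labelled Mical3, Atp5a1 and Atp5b highest on the array labelled Mical2, Sdhaf3 low only there, and Ndufaf3 and Cox7a1 highest on the vector array.

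In the ATP synthase, complex V, the genes of the 2 large F1 head subunits were highest on the array labelled Mical2. Atp5b, the catalytic beta subunit of the F1 head, read 13.47 on the untreated array, 13.24 on the vector array, 13.74 on the Mical2-labelled and 13.34 on the Mical3-labelled array. Atp5a1, the alpha subunit that alternates with beta in the head, read 12.15, 11.96, 12.56 and 12.08 in that order. Both were highest on the array labelled Mical2, by 0.50 and 0.60 from the vector and 0.27 and 0.41 from the untreated array. The other 2 probe sets of Atp5a1 read 11.82, 11.92, 12.56 and 11.98, and 7.79, 8.06, 8.62 and 8.01, so all 3 had their highest level on the array labelled Mical2. The vector array was lowest in 1 of the 3 only. The other F1 genes did not share this. Atp5d, the delta subunit, read 13.57, 13.66, 13.50 and 13.24, and Atp5e, the epsilon subunit, 12.59, 13.00, 12.71 and 12.59, both highest on the vector array, and Atp5c1 was flat as given above. Over all 5 F1 genes the medians were 0.07 for the vector minus the untreated array and -0.05 for the array labelled Mical2 minus the vector array.

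The peripheral stalk, which holds the head still, was mostly highest on the vector array, like Atp5d and Atp5e. Atp5o, the subunit that joins stalk and head, read 13.19, 13.53, 13.22 and 12.99 on the untreated array, the vector array and the arrays labelled Mical2 and Mical3. All 4 stalk genes were higher on the vector than on the untreated array, with a median of 0.29, and 3 of 4 were lower on each hairpin array than on the vector array. The small membrane subunits had medians of -0.35 and -0.25 for the array labelled Mical3 minus the vector and the untreated array. Atp5mpl, one of them, read 12.96, 13.02, 13.00 and 12.46, the last value standing apart. The 3 genes of the c-ring differed among themselves. Atp5g2 read 13.14, 13.55, 13.24 and 13.06, highest on the vector array, while Atp5g1 and Atp5g3 had ranges of 0.16 and 0.13.

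Between the hairpin arrays, 7 of 92 genes differed by 1.5-fold (19.2% of all genes did). Higher on the array labelled Mical2 were Cox7c, Ndufa10, Ndufa2, Uqcr11 and Uqcrh (8.1% of all genes), and lower were Cox7a1 and Sdhaf3 (11.1%). Of these, Cox7c and Cox7a1 were read near the floor. The vector against the untreated array gave 4 of 92 at this size (17.6% of all genes, 10.3% higher), Cox6a2, Cox7a1, Ndufaf3 and Ndufb4, all higher on the vector array. In each of these counts the share of oxidative phosphorylation genes was below that of all genes.

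Promoter sequences are shown for the genes that stood apart, since known regulators of this pathway bind near the start of its genes. A promoter window, 250 bases before to 50 after the gene's start in RefSeq (GRCm38.p6), was found for 78 of the 94 genes. It was searched on both strands for the palindromic NRF1 consensus motif, CCGGAAG (ETS family, which includes GABP) and AAGATGGC (YY1). The first start listed for each gene was used. The NRF1 motif was in 6 of 78 windows (7.69%, against 0.977% of the windows of all 27025 genes), the ETS motif in 21 (26.9%, against 9.12%) and the YY1 motif in 9 (11.5%, against 2.88%). By complex, the ETS motif was in 6 of 38 windows of complex I, 5 of 7 of complex II, 2 of 5 of complex III, 3 of 13 of complex IV and 5 of 15 of complex V. The YY1 motif was in 7 windows of complex I and 2 of complex V, and in none of the other 3 complexes. A match is a description of the sequence and not a binding site.

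The 250 bases before the start follow for 3 genes that were lowest on the array labelled Mical3 (Uqcr11, Uqcrh and Ndufs5), for Sdhaf3, low on the array labelled Mical2, and for Cox7a1, highest on the vector array. They read 5′ to 3′ along the gene's strand, and capitals mark a match to the ETS motif.
Uqcr11, chr10:80406822-80407071, minus strand: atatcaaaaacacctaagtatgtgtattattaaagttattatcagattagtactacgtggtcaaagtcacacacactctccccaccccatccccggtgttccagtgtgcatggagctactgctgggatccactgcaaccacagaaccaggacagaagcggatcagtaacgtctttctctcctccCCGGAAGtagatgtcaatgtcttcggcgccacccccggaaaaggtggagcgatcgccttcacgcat
Uqcrh, chr4:116075071-116075320, minus strand: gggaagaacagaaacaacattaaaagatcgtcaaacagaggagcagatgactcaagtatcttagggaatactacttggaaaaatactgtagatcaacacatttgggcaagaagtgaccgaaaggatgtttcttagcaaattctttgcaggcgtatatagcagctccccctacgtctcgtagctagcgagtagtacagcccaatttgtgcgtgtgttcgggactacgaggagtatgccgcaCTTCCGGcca
Ndufs5, chr4:123718187-123718436, minus strand: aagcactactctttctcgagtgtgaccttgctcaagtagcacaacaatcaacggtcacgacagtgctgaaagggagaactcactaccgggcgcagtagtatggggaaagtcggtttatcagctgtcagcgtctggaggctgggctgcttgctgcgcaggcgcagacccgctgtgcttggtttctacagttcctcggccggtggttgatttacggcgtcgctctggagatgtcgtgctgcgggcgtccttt
Sdhaf3, chr6:6955768-6956017, plus strand: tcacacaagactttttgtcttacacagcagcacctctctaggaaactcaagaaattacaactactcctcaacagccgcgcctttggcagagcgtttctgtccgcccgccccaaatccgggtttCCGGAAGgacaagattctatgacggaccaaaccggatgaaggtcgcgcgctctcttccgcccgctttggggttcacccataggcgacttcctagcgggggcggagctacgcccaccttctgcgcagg
Cox7a1, chr7:30183921-30184170, plus strand: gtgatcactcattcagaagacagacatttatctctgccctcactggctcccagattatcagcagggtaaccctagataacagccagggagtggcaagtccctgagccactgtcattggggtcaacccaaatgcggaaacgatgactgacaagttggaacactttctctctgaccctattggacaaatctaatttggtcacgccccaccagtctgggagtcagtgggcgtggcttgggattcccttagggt
The ETS motif begins 66 bases before the start of Uqcr11 and 127 before that of Sdhaf3, and lies on the opposite strand, from 10 bases before the start, in Uqcrh. Ndufs5 and Cox7a1 have none of the 3 motifs in the window. The motif is thus present both in genes low on the array labelled Mical3 and in one low on the array labelled Mical2, and absent from another gene low on the former.

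Other genes of the pathway were read from lists of their own. The nuclear regulators had 12 genes, none called on a hairpin array against both controls. Of the 12, 1 was called on the vector array against the untreated array (5.83% of all genes were). This was Ppargc1a, the gene of the coactivator PGC-1alpha, a known inducer of mitochondrial genes. It read 4.19 on the untreated array, 6.84 on the vector array, 3.96 on the Mical2-labelled and 3.78 on the Mical3-labelled array. Its other 4 probe sets read 5.39, 6.95, 6.43 and 6.37 on the vector array, and between 3.35 and 4.07 on the other arrays. The vector array, where 49 of the 94 oxidative phosphorylation genes had their highest level, was thus the only one with Ppargc1a above the floor, and the part of Ppargc1a in those levels was not tested. Its relative Ppargc1b did not share this, at 7.26, 7.24, 7.47 and 8.03. The transcription factors Nrf1 (7.67, 7.85, 7.40 and 7.90), Gabpa (10.06, 10.36, 10.28 and 9.81) and Esrra (9.10, 9.00, 9.11 and 9.30) and the mitochondrial DNA packaging factor Tfam (10.72, 10.51, 10.75 and 10.50) had ranges of 0.55 or less, while the list's median range was 0.78. Gabpb1, the partner of Gabpa in GABP, was lowest on the vector array in its chosen probe set (8.21, 7.44, 8.36 and 8.44). A dimmer probe set of Gabpb1 did not show it (6.71, 6.82, 6.82 and 6.54). The mitochondrial transcription factors Tfb1m (8.86, 8.79, 8.15 and 9.10) and Tfb2m (8.87, 8.75, 9.44 and 8.61), the mitochondrial RNA polymerase Polrmt (9.79, 9.94, 9.72 and 9.16) and the PGC-1 relative Pprc1 (8.94, 8.74, 8.59 and 9.47) had ranges between 0.78 and 0.95, each with its lowest level on a hairpin array.

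The mitochondrial genome was read by 1 probe set with a single gene name, for ND5, a proton-pumping subunit of complex I. It read 12.24 on the untreated array, 11.21 on the vector array, 11.43 on the Mical2-labelled and 11.71 on the Mical3-labelled array. The vector array was 1.03 below the untreated array and was called lower, opposite to the median of the nuclear subunits of complex I (0.13).

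Of 35 other assembly factors, 33 reached the floor, and 2 of these were called lower on the array labelled Mical2 against both controls (2.73% of all genes were called there in either direction) and none on the array labelled Mical3. Both act on complex IV. Coa3 read 11.65 on the untreated array, 12.05 on the vector array, 10.29 on the Mical2-labelled and 12.22 on the Mical3-labelled array, and a second probe set 9.89, 10.34, 8.68 and 10.60. Cox16 read 10.68, 10.91, 9.39 and 10.56. The array labelled Mical2 stood alone in each, as it did for Sdhaf3. The complex IV subunits themselves did not follow, with a median of 0.04 for that array minus the untreated array. The list's medians were 0.19 for the vector minus the untreated array and -0.19 for the array labelled Mical2 minus the vector array.

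Among 18 genes of electron entry and carriers, Coq10a, a ubiquinone-binding protein, was called higher on the vector array (8.11 untreated, 9.12 vector, 7.99 and 7.57 on the arrays labelled Mical2 and Mical3). It was the only gene of the 18 called there, where 5.83% of all genes were. Cytochrome c, Cycs, read 13.62, 13.39, 13.51 and 13.84, and cytochrome c1, Cyc1, 12.64, 12.87, 12.93 and 12.69. Cyc1 belongs to complex III, but its symbol falls outside the name rule, so it was counted in this list. The list's medians of 0.10 for the vector minus the untreated array, -0.11 for the array labelled Mical2 minus the vector array and -0.16 for the array labelled Mical3 minus the vector array equalled those of the 94 genes. Of 13 tricarboxylic acid cycle enzymes, Idh2, the mitochondrial NADP-dependent isocitrate dehydrogenase, was called lower on the array labelled Mical3 (10.59, 10.06, 10.43 and 8.99). It was the only enzyme of the 13 called there, where 3.87% of all genes were. That list's medians from the vector array were 0.13 and 0.04 on the arrays labelled Mical2 and Mical3, opposite in sign to those of the subunits.

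The 76 mitochondrial ribosomal protein genes gave a median of 0.14 for the array labelled Mical3 minus the untreated array, higher in 54, where the oxidative phosphorylation genes gave -0.04. Against both controls, Mrpl24 was the 1 called, lower on the array labelled Mical2 (11.56, 12.10, 10.36 and 11.38), where 2.73% of all genes were called. Between the hairpin arrays, Mrpl24 and Mrps6 were called, where 7.53% of all genes were. Mrps6 read 12.18 on the one labelled Mical2 and 11.13 on the one labelled Mical3. The 3 carriers at the floor that bring ADP or phosphate into mitochondria had their lowest levels on the vector array, for Slc25a4 within 0.01 of another array. Slc25a5 read 14.00, 13.48, 13.99 and 13.81, Slc25a4 13.66, 13.43, 13.54 and 13.44, and Slc25a3 13.62, 13.30, 13.79 and 13.50. The uncoupling protein gene Ucp3 read 5.50, 5.50, 5.93 and 5.60. For scale, 47 cytosolic ribosomal protein genes had medians within 0.02 of 0 in all 6 pairs of arrays and none called.

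**Figure D4:**
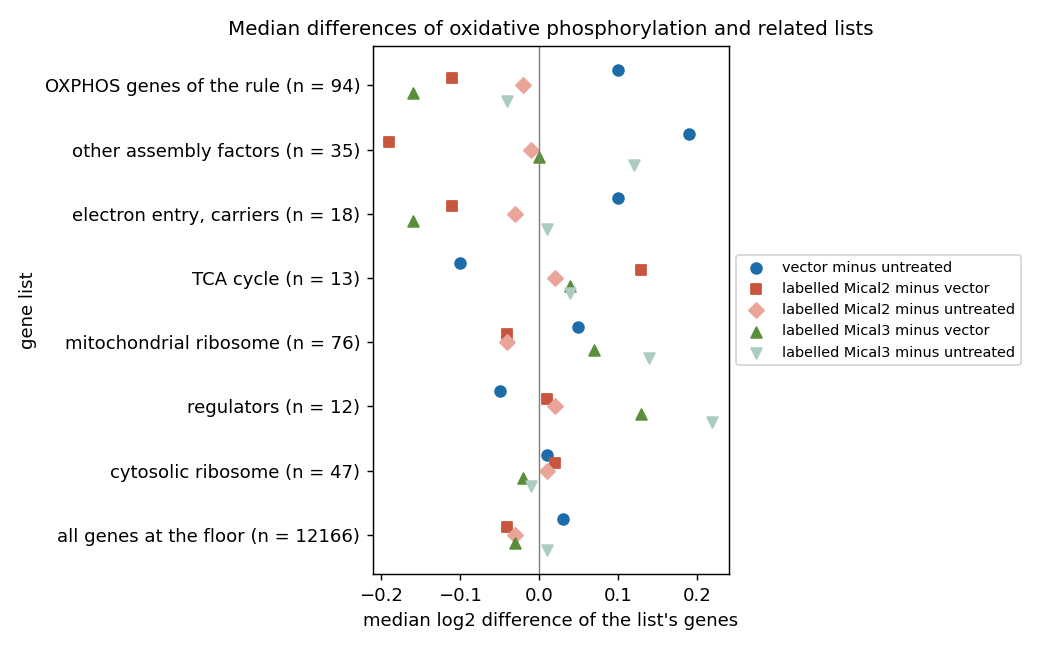
Median log2 difference (horizontal axis) of the genes of each list (vertical axis, n genes per list) for 5 pairs of arrays, 1 marker per pair. The 94 oxidative phosphorylation genes and the 18 genes of electron entry and carriers both lie at 0.10 for the vector minus the untreated array, the tricarboxylic acid cycle enzymes lie at -0.10, and the cytosolic ribosomal proteins stay within 0.02 of 0.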

How the data were processed

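The authors deposited log2 expression values for 45101 probe sets of an Affymetrix mouse array. RMA is named in the submitters' processing notes, with no version or settings. RMA subtracts background, makes the distributions of the arrays alike and summarises the probes of a set, which compresses differences at low levels. Of the probe sets, 34945 carried 1 gene symbol in GEO's platform annotation, 932 carried several and were left out of the counts, and 9211 carried none. The 64 control probe sets, annotated or not, were also left out. Symbols were updated through Entrez identifiers for matching to RefSeq (34754 probe sets). Each gene was read by its probe set with the highest mean. No depth applies to arrays, and with 1 array per group their number limits the precision.

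A call needed a 2-fold difference and a level at the floor of 5.41. A count of any size needed only the floor and the sign. No p-value was computed. Scripts used Python 3.11.15 with numpy 2.4.6, pandas 2.3.3, statsmodels 0.14.6 (loess) and matplotlib 3.10.9, and were tested on simulated data. Promoter windows came from RefSeq (GRCm38.p6).

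The genes named are those called in any comparison, in each complex the 4 with the largest range and the 1 with the smallest, the alternative isoforms with their ubiquitous partners, and in each further list the called genes or else up to 4 with the largest range. Genes named beyond these, such as Ndufs5, Ndufa10, Ndufv1, Ndufs7, Atp5d, Atp5e, Ppargc1b, Gabpb1, Tfb1m, Tfb2m, Polrmt, Pprc1, Nrf1, Gabpa, Esrra, Tfam, Cycs and Cyc1, were chosen after their values were seen or for their role. The genes and lists were chosen with earlier results of these data known. Alternatives covered the fold, the floor, the choice of probe set, the normalization, the control and the genes counted.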

Additional observations from a re-analysis of the deposited data

How the results depend on the processing

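No paired analysis was possible because each group has 1 array. No direction reversed in the called values. The counts at 2-fold were 0 for each hairpin array against both controls, 1 for the vector array compared with untreated cells and 1 between the hairpin arrays. For the array labelled Mical2 the count was 1 at 1.5-fold, 3 with the vector array alone as control and 1 with the mean of both controls. The 3 were Cox7a1, Sdhaf3 and Ndufaf3, each with its highest level on the vector array. The share of all genes called under these other controls is not given, so these counts cannot be set beside it. For the array labelled Mical3 it was 2 at 1.5-fold. For the vector array it was 4 at 1.5-fold and 0 at 3-fold, with a floor at the 75th percentile, with 16 added on the linear scale, or with structural subunits only. Between the hairpin arrays it was 7 at 1.5-fold and 0 at 3-fold, with the mean of the probe sets of a gene, or with structural subunits only. The other 37 counts were unmoved. The counts of any size, whose alternatives were chosen after seeing the data, stayed within 1.5 times in all 48 cases. Genes lower than both controls numbered 37 to 50 on the array labelled Mical2 and 33 to 53 on the array labelled Mical3.

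Of the median differences recomputed, 298 moved by less than 0.1 and 26 moved by 0.1 or more. Most of the 26 were in complexes II and III, and the others were in complexes IV and V or over all 94 genes. Over all 94 genes this happened for the array labelled Mical2 minus the array labelled Mical3, 0.17 with the highest-variance probe set. In complex II, the array labelled Mical2 minus the vector array gave -0.32 as a mean, -0.08 with the highest-variance probe set and -0.07 with structural subunits only. The array labelled Mical3 minus the vector array gave -0.18 with the mean of the probe sets, -0.52 with the highest-variance probe set and -0.10 without probe sets open to cross-hybridisation. Minus the untreated array it gave -0.38 and 0.02 under the last pair, and the difference between the hairpin arrays was -0.05 as a mean, 0.29 and -0.02.

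In complex III, the array labelled Mical2 minus the vector array gave 0.14 with the highest-variance probe set and 0.07 without cross-hybridising sets. The array labelled Mical3 minus the vector array gave -0.06 with the mean of the probe sets, 0.08 and -0.07, and minus the untreated array -0.14 as a mean. Between the hairpin arrays it was 0.12 as a mean and 0.05 without cross-hybridising sets. In complex IV, structural subunits only gave -0.22 and -0.12 for the array labelled Mical3 minus the vector and the untreated array and 0.17 between the hairpin arrays, which was -0.07 without cross-hybridising sets. In complex V, the array labelled Mical3 minus the vector array was -0.21 as a mean and -0.22 without cross-hybridising sets. The cause was not tested. Alternatives for single genes were also added after seeing the data. Signal near background limits Cox7a1, whose difference between the array labelled Mical2 and the vector array went from -1.50 to -1.08 with 16 added. Sdhaf3 went from -1.46 to -0.84 with the mean of its probe sets, 1 of which is below the floor.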
